A study of Mus musculus with 2 samples.

Results

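Immunoglobulin constant genes and B cell genes were examined in polyadenylated RNA sequenced from regulatory T cells of a mouse. These CD4 T cells depend on the transcription factor Foxp3 and restrain immune responses. The set is a list of 9 genes, matched by gene identifier, out of 55536 annotated genes. Ighm, Ighd, Igkc and Iglc2 encode constant regions of the mu, delta, kappa and lambda immunoglobulin chains. Jchain, Cd79a, Cd79b, Ms4a1 and Pax5 act around them in B cells. The genes were chosen by their measured TPM (transcript level per unit of length, scaled to an equal total in each library): Ighm was high and the others were set beside it. The levels below are therefore a description, and no test was made of them.

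The samples form 1 group of 2 libraries. Per the labels, both are technical replicates of 1 biological sample of primary regulatory T cells from 1 male mouse aged 4 months, of the strain Foxp3CreERT2 x Rosa26YFP, which joins a Foxp3 allele expressing a tamoxifen-regulated Cre recombinase to a Rosa26 yellow fluorescent reporter. Their origin is labelled as bone marrow haematopoietic; no treatment, sort or gate is named. No group for comparison exists, so the data give levels in this sample, and the spread between the libraries (SD, n = 2) is technical only.

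In B cells a heavy chain gene is assembled from V, D and J segments, and its transcript is spliced to the constant exons of Ighm or, further downstream, of Ighd. IgM is made in a membrane form, which pairs with a light chain and with the CD79A and CD79B signalling chains, and in a secreted form, which plasma cells export joined by the J chain. An enhancer in the intron between the J segments and the mu exons also starts germline transcripts that carry the mu exons without a V segment. Such transcripts, and partial D to J joins, have been described in T cells.

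Library 1 held 15821875 estimated counts on annotated genes and library 2 held 16153671. Where no read was counted, a level of up to 3 counts is allowed; on the CPM scale (counts scaled to the library total) this is 0.190 in library 1 and 0.186 for the other. Counting error is all that floors and intervals cover. All 11 listed T and regulatory T cell genes reached 1 TPM in each library, with a median of 711 TPM. Among all annotated genes 24.3% did so, and among protein-coding genes 46.5%. The list was chosen with earlier results of these data known, so the cell label was not tested by it. Foxp3, the lowest of the list by mean TPM, was at 43.2 TPM in library 1 and 36.2 in library 2. Part of its transcript sequence also occurs in other annotated genes.

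The membrane and secreted forms of Ighm share the exons of the mu domains and part in the last of them, so their ends are what separates them in these tables. The sequences are shown because the authors' split between the forms rests on reads from these ends. Both come from the GENCODE M21 transcripts on mm10, minus strand, after splicing. The secreted end spans chr12:113420867-113420958 and the membrane end chr12:113418826-113420958, introns included. Lower case marks the last 30 shared bases, and capitals mark the coding bases found in that form only, with the stop codon.
Ighm-201, secreted: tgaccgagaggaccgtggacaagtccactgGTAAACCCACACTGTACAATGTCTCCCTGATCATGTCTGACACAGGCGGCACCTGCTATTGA
Ighm-202, membrane: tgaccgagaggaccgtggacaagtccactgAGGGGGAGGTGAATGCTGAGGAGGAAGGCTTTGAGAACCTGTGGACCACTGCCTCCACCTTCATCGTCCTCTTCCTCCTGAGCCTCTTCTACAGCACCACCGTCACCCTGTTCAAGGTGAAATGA
The secreted form has 62 coding bases of its own and the membrane form 125, both ending in TGA. With their untranslated ends, 188 of the 1444 windows of 50 bases in Ighm-201 occur in it alone, and 393 of the 1649 in Ighm-202. Both forms share 1256 windows, and no Ighm window occurs in a transcript of another annotated gene on either strand.

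Ighm, the mu constant gene (ENSMUSG00000076617.9, mm10 chromosome 12, 113418558 to 113422730, minus strand), stood far above the other genes of the list. It was at 1039 TPM in library 1 and 1079 in library 2, from 20335 and 22128 counts, or 1059 ± 28.4 TPM. It ranked 147 of 55536 genes by mean TPM. Just above it were Rpl30 at 1081 ± 47.4 TPM and Rps16 at 1086 ± 4.63 TPM, which encode ribosomal proteins. Those just below were Ptprc, the CD45 phosphatase of leukocytes, at 1057 ± 3.09 TPM, Srgn, a granule proteoglycan, at 1043 ± 60.0, and Npm1, a nucleolar chaperone, at 1042 ± 15.7. Likeness here is the rank in mean TPM over 2 libraries, and these neighbours lie within the spread of the libraries. In bulk RNA, fewer cells of a type and less RNA per cell cannot be told apart, so the level does not say how many cells held the transcript.

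Of the 9 genes, 4 reached 1 TPM in both libraries, namely Ighm, Igkc, Cd79b and Ighd; this share reads against 24.3% of all annotated genes and 46.5% of protein-coding genes. The median over the 9 was 1.24 TPM, beside 0.025 for all annotated genes and 0.625 for protein-coding genes. Ighm was the one with over 1000 counts.

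**Figure D1:**
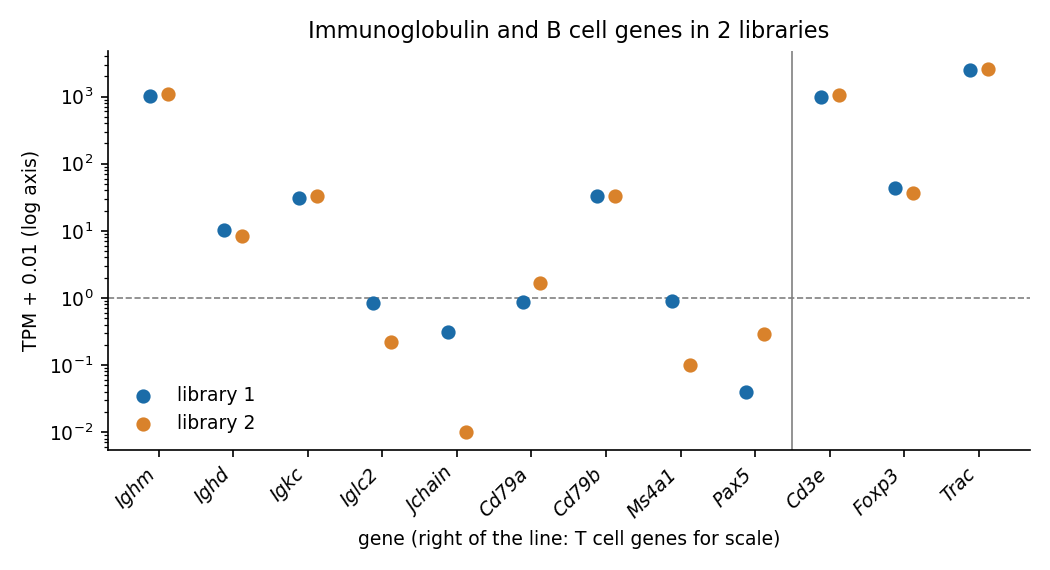
TPM plus 0.01 on a log axis for each of the 9 genes in library 1 (blue) and library 2 (orange), with 3 T cell genes to the right of the vertical line; the dashed line is 1 TPM. Ighm, at 1039 and 1079 TPM, lies at the level of Cd3e, while Cd79a, Ms4a1, Iglc2, Jchain and Pax5 lie near or under 1 TPM.

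The authors' transcript table split Ighm between both of its annotated transcripts, with the membrane form the more abundant. The 6-exon membrane form Ighm-202 was given 662 TPM in library 1 and 680 in library 2, from 13579 and 14629 counts. The 4-exon secreted form Ighm-201 was given 376 and 398 TPM, from 6756 and 7499 counts. The membrane form thus held 63.4 ± 0.49% of Ighm TPM and the secreted form 36.6 ± 0.49%, and the order was the same in both libraries. Both annotated transcripts begin at the first mu exon and are marked as incomplete at the 5′ end, so no exon upstream of it, whether of a V segment or of the germline start, is part of either. These shares are estimates of the authors' model.

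Ighd, the delta constant gene that B cells express by splicing past the mu exons (ENSMUSG00000104213.5, chromosome 12, 113406604 to 113416324, minus strand), was at 10.2 TPM in library 1 and 8.38 in library 2, from 222 and 192 counts. Ighm exceeded it 102-fold in library 1 and 129-fold in library 2 on the TPM scale. In counts the ratio was 91.6 and 115 in the larger tables, and 35.4 and 38.9 in the smaller ones. Every count went to Ighd-202, the transcript with the membrane exons, and none to the secreted form Ighd-201.

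The heavy chain constant genes further downstream, which B cells reach by class switching, were close to the floor with 1 exception. Ighg3, the IgG3 constant gene, had 36 and 59 counts, or 2.80 and 3.73 TPM, and was the only 1 of the 6 matched genes to reach 1 TPM in each library. Ighg2b had 2 and 9 counts, Igha 6 and 7, and Ighg1 0 and 4. Neither Ighe nor Ighg2c had a count, so they could not be detected at this depth. Ighg2a, also listed, matched no symbol. Of the counts on all immunoglobulin constant genes, Ighm held 97.8% in library 1 (95% exact Clopper-Pearson interval 97.5 to 98.0, of 20802 counts) and 97.8% in library 2 (97.6 to 98.0, of 22615).

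**Figure D2:**
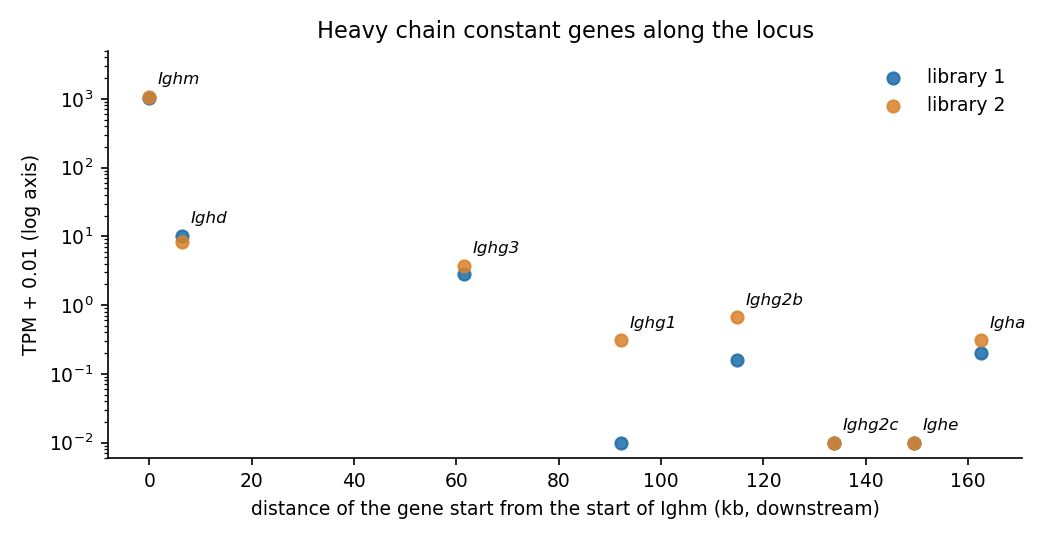
TPM plus 0.01 on a log axis for the 8 heavy chain constant genes against the distance of each gene's start from that of Ighm, in kilobases in the direction of transcription, for library 1 (blue) and library 2 (orange). Ighm lies 102 and 129 times above Ighd, which starts 6.41 kb downstream, and every gene from Ighg1 on is under 1 TPM.

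The light chain constant genes were low beside Ighm. Igkc, the kappa constant gene (ENSMUSG00000076609.2, chromosome 6, 70726435 to 70726966, plus strand), was at 30.6 TPM in library 1 and 33.0 in library 2, from 184 and 208 counts. Ighm was 33.9 and 32.7 times as high on the TPM scale, a mean of 33.3 ± 0.87. Igkc overlaps the annotated noncoding gene Gm30211 on the same strand, which had 18 and 22 counts. No 50-base window of the Igkc transcript occurs in a transcript of another annotated gene. Iglc2, a lambda constant gene (ENSMUSG00000076937.3, chromosome 16, 19198396 to 19200351, minus strand), received 5.33 and 1.14 estimated counts, or 0.82 and 0.21 TPM. Of its 50-base windows 7.65% also occur in other genes, mostly its paralog Iglc3, so its level is uncertain. Iglc3 had 8.67 and 6.86 counts, of which 22.3% of windows are shared, Iglc1 3 and 0 counts, and Iglc4 none in either library.

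Variable segments gave the other view of the same loci, since a rearranged transcript carries a V segment upstream of the constant exons. The 196 heavy chain V segments, pseudogenes included, had 33.0 counts together in library 1 and 35.7 in library 2, spread over 18 and 19 segments with a count. In TPM the V segments of the heavy chain locus summed to 10.7 and 8.93, and those of the kappa locus to 8.23 and 8.75. The V segment sums of both loci were thus of one size, while the constant sums were 1052 and 1092 TPM for the heavy chain and 30.6 and 33.0 TPM for kappa. No lambda V segment had a count.

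Set against their constant genes, heavy chain V segments had a lower share of counts than the V segments of the T cell receptor loci in the same libraries. Heavy chain V segments made up 0.160% of V plus constant counts in each library, with 95% exact intervals of 0.110 to 0.225 and 0.112 to 0.222. For the T cell receptor beta locus the share was 22.5% (22.2 to 22.9) and 22.6% (22.3 to 23.0), and for the alpha and delta loci together 22.5% (22.0 to 22.9) and 23.1% (22.6 to 23.5). The kappa locus was at 15.2% (10.7 to 20.7) and 14.4% (10.2 to 19.5). The gamma locus, a T cell receptor locus that alpha beta T cells also transcribe, was at 2.21% (0.605 to 5.56) and 2.87% (1.16 to 5.82). Ighm supplied 20335 of the 20601 heavy chain constant counts in library 1 and 22128 of 22399 in library 2. Since its level chose the genes, the low heavy chain share is a description and was not tested.

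Per length, constant TPM exceeded V TPM 98.8-fold in library 1 and 122-fold in library 2 at the heavy chain locus, 3.72-fold and 3.77-fold at kappa, and 1.85-fold and 1.86-fold at the beta locus. These ratios moved with the estimate: by posterior mean TPM, which is above 0 for segments without a count, V segments came to 7.83% and 7.14% of constant TPM at the heavy chain locus in place of 1.01% and 0.818%. At the kappa locus they came to 223% and 199.7% in place of 26.9% and 26.5%. At the beta locus they came to 54.3% and 54.1% in place of 54.1% and 53.9%. In the smaller tables heavy chain V segments had 10.6 and 8.32 counts per 1000 constant counts, against 1.60 and 1.59 in the larger ones. The V counts themselves were 34 and 27 in the smaller tables, against 33.0 and 35.7 in the larger. The constant counts were 3199 and 3245 in the smaller tables, against 20601 and 22399, so the constant counts were what differed most. A read that crosses a V to D to J join matches no annotated transcript, at the immunoglobulin and the T cell receptor loci alike. The highest heavy chain V segments were Ighv6-4 with 5 and 5 counts, Ighv1-47 with 0 and 6, and Ighv6-7 with 4 and 2. Among kappa segments Igkv3-4 led with 9 and 4 counts, ahead of Igkv1-117 with 5 and 0 and Igkv2-109 with 1 and 4.

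**Figure D3:**
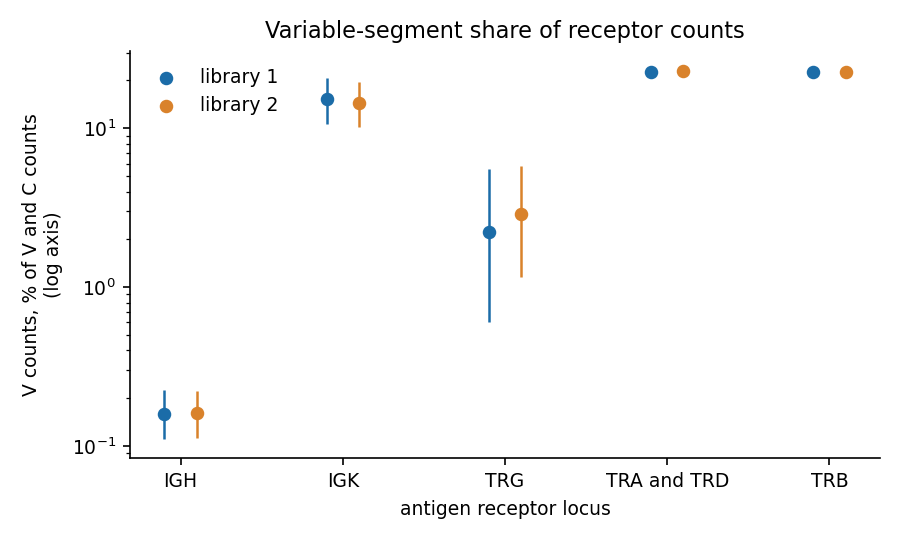
V segment counts as a percent of V and constant gene counts, on a log axis, for 5 antigen receptor loci in library 1 (blue) and library 2 (orange), with 95% exact intervals as vertical lines (counting error only; those of the alpha, delta and beta loci are narrower than the points). The heavy chain locus (IGH) lies at 0.160% in both libraries, under every other locus drawn; the lambda locus, with no V count, is not drawn.

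D segments, all too short to hold a window of 50 bases whole, had 0 counts. The 4 heavy chain J segments had 6 counts in library 1 and 7 in library 2. They are printed because their length sets what can be counted in them: they are 48 to 54 bases long, so few windows of 50 bases fit. The sequences are from the GENCODE M21 transcripts on mm10, minus strand, at chr12:113429781-113429833 for Ighj1, chr12:113429468-113429567 for the gene Ighj2 (the shorter of its transcripts is shown), chr12:113429085-113429132 for Ighj3 and chr12:113428514-113428567 for Ighj4.
Ighj1: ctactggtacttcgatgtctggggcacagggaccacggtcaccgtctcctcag
Ighj2: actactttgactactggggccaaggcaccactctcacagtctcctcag
Ighj3: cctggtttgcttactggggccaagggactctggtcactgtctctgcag
Ighj4: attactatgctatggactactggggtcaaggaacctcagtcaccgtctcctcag
Ighj1 had 4 and 6 counts, Ighj4 2 and 0, Ighj2 0 and 1, and Ighj3, with an effective length of 0, none. With an effective length of 4 bases, the counts of Ighj1 came to 80.4 and 115 TPM, a level that a change of 1 count moves widely. Between the J segments and Ighm, where the intronic enhancer lies, the annotation holds only 4 microRNA genes, of which Gm22175 had 6 and 3.81 counts, Gm24022 (ENSMUSG00000092737.2) 3 and 1, and Gm25747 0 and 2.19.

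The partners of IgM at the B cell surface did not stand at similar levels. Cd79b, the Ig-beta signalling chain (ENSMUSG00000040592.11, chromosome 11, 106311341 to 106314762, minus strand), was at 33.2 TPM in library 1 and 33.3 in library 2, from 478 and 503 counts. Cd79a, the Ig-alpha chain with which it forms the signalling pair (ENSMUSG00000003379.7, chromosome 7, 24897381 to 24902197, plus strand), was at 0.85 and 1.63 TPM, from 14.95 and 30 counts. Cd79b was thus well above Cd79a in both libraries. No window of Cd79b occurs in another gene, while 8.31% of those of Cd79a do. The transcript Cd79b-202 was given 94.5 ± 0.23% of Cd79b TPM, and Cd79b-201 the rest.

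Ms4a1, which encodes the B cell surface protein CD20 (ENSMUSG00000024673.9, chromosome 19, 11249675 to 11266241, minus strand), received 30 counts in library 1 but 3 in library 2, or 0.88 and 0.09 TPM. About equal counts in library 1 went to the protein-coding Ms4a1-201, with 15.2, and to the retained-intron transcript Ms4a1-202, with 14.8. Pax5, the transcription factor that holds B cell identity (ENSMUSG00000014030.15, chromosome 4, 44524757 to 44710487, minus strand), had 3 and 6 counts, or 0.03 and 0.28 TPM. Its posterior mean TPM was 2.23 and 2.27, past 1 TPM in both libraries, so its side of that threshold depends on the estimate. Of its 20 annotated transcripts, Pax5-201 alone had 1 count or more, with 3 and 5.06 counts. Jchain (ENSMUSG00000067149.6, chromosome 5, 88519809 to 88527891, minus strand) received 5 counts in library 1 but 0 in library 2, or 0.30 and 0 TPM.

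Of the other genes of B cell identity 7 of 17, or 41.2%, reached 1 TPM in each library, near the 46.5% of protein-coding genes. Their median was 0.675 TPM, beside 0.625 for protein-coding genes. Cd72, a B cell surface receptor that binds CD100, was at 87.7 and 98.4 TPM. Of its windows 36.7% also occur in Tesk1, which lies on the opposite strand. Cxcr5, the receptor for the follicular chemokine CXCL13 that follicular T cells also carry, was at 67.1 and 69.8 TPM. Bank1 at 3.73 and 5.27 TPM, Cd22 at 3.43 and 3.10, Ly6d at 3.12 and 3.64, Fcmr, the IgM Fc receptor, at 2.75 and 1.47, and Cr2 at 1.37 and 1.89 were the others. Ebf1, an early B cell factor, had 13 and 8.03 counts, and the adaptor gene Blnk 1 in each library.

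Genes of the earliest B cell stages had 1 of 7 members at 1 TPM in both libraries, Il7r, which T cells express as well. The surrogate light chain gene Igll1 had 6 and 0 counts, Vpreb1 1 and 15.4, and Vpreb2 none in either. The recombinase genes Rag1 and Rag2 had 1 and 0, and 0 and 5.69 counts. Plasma cell genes had 4 of 9, with a median of 0.790 TPM: Xbp1 at 31.9 and 33.3 TPM, Irf4 at 12.2 and 11.0, Prdm1 at 9.54 and 12.3 and Creb3l2 at 2.53 and 2.42. Xbp1, Irf4 and Prdm1 encode regulators that T cells use too. Sdc1, the plasma cell surface marker syndecan-1, had 0 and 6 counts, and Mzb1, a chaperone of IgM assembly, 3 and 0. The part of any B or plasma cells in the level of Ighm was not tested.

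B cell receptor signalling genes had 11 of 19 at 1 TPM in both libraries and a median of 3.27 TPM. Those shared with T cell signalling led, with Cd81 at 192 and 216 TPM, Ptpn6, the SHP-1 phosphatase, at 139.9 and 138.8, and Vav1 at 65.1 and 66.1. The kinase genes Syk and Btk, which act next to the receptor in B cells, had 2 and 10, and 17 and 9 counts. Lyn, another kinase gene of the list, had 162 and 169 counts, or 5.88 and 4.83 TPM, while Blk had 7 and 0 counts. Plcg2 and Fcgr2b had 0 in both libraries. Of the 4 listed genes of immunoglobulin receptors and IgM handling, Fcmr alone reached 1 TPM in both libraries.

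Factors that bind the heavy chain enhancer or promoters, or that regulate such factors, were present, with 15 of 16 at 1 TPM in both libraries and a median of 26.6 TPM. Ets1 led at 653 and 595 TPM. The E protein gene Tcf12 was at 31.1 and 29.4 TPM, Tcf3 at 6.71 and 6.31, and their inhibitors Id3 and Id2 at 289.7 and 288, and 173 and 185 TPM. The octamer-binding factors Pou2f1 and Pou2f2 stood at 39.7 and 41.1, and 25.4 and 21.9 TPM, and their B cell coactivator Pou2af1 at 3.31 and 1.55. Spi1, which encodes PU.1, was the one under the threshold, with 2 and 0 counts.

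Genes reported to act on the 3′ end choice or the splicing of heavy chain transcripts were all at 1 TPM or more, 9 of 9, with a median of 46.4 TPM. Cstf2, a cleavage factor that favours the secreted site in B cells, was at 24.8 and 24.4 TPM, and Ell2, an elongation factor that does so in plasma cells, at 1.61 and 2.60. Hnrnpf, which opposes Cstf2 there, was at 804 and 797 TPM, with 61.9% of its windows shared with other annotated genes. Zfp318, which promotes the splicing to Ighd in B cells, was at 2.27 and 3.72 TPM.

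**Figure D4:**
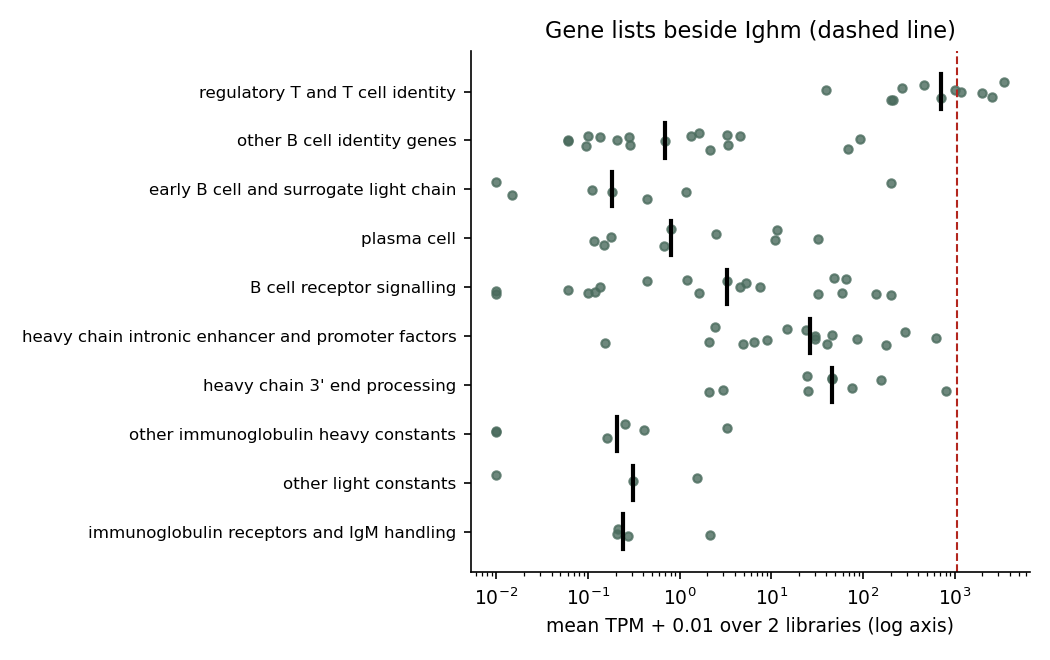
Mean TPM plus 0.01 over 2 libraries on a log axis for each gene of the 10 lists (points, spread vertically for sight only), with the list median as a black bar and Ighm as the dashed line. The T cell list has its median at 711 TPM, while other B cell identity, early B cell and plasma cell genes have theirs at 0.675, 0.175 and 0.790 TPM.

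The libraries were compared gene by gene by an exact two-sided binomial test on the counts. It compares libraries of the same cells, not conditions, and its p values are too small because the libraries varied beyond counting error, by 13% as a coefficient of variation. Of the 6 genes of the set with a summed count of 10 or more, 2 differed, 1 in each direction, beside 25.1% of the 17458 genes tested. Ms4a1 was lower in library 2, by 3.15 on the log2 scale (3 counts against 30, adjusted p = 1.33e-05, exact binomial test). Ighm was higher in library 2 with a log2 ratio of 0.09 (adjusted p = 4.87e-09, exact binomial test), under the median absolute log2 ratio of 0.22 among all genes tested. In the smaller gene tables the log2 ratio of Ighm was 0.02, and its adjusted p from that exact test was 0.811; Ms4a1 had 6 and 0 counts. Ighm had 1.96 and 1.98 counts per base there, in the densest class of genes, where the smaller tables held the smallest part of the larger tables' counts, so a ratio near 0 in them does not show that its level was equal.

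For Ighd, Igkc, Cd79a and Cd79b the adjusted p was 0.227, 0.546, 0.113 and 0.813 in the exact binomial test, with log2 ratios of -0.24, 0.15, 0.95 and 0.04. The ratio of Cd79a, from 14.95 and 30 counts, was in the direction opposite to that of Ms4a1. Iglc2, Jchain and Pax5 had too few counts to be tested. Among the other B cell identity genes 2 of 12 tested differed, Cd72 with a log2 ratio of 0.22 (adjusted p = 0.000968, exact binomial test) and Cxcr5 with 0.19 (adjusted p = 0.00107), both higher in library 2. Of 6 plasma cell genes tested none differed, and of 3 early B cell genes 1, Vpreb1, which was higher in library 2. Vpreb1 had only 1 and 15.4 estimated counts, and 23.6% of its windows also occur in other genes. Of 14 receptor signalling genes tested 2 were higher in library 2 and 1 in library 1, among them Pik3ap1 with 17 and 112 counts. Enhancer and promoter factors had 2 higher in library 2 and 4 in library 1 of 15 tested, and the genes of 3′ end choice 2 and 3 of 9. Beyond the set, 3 heavy chain and 1 light chain constant genes and 2 IgM handling genes were tested, and none differed. Of the 11 T cell genes 6 were higher in library 2 and 2 in library 1. Among those T cell genes that differed, the largest log2 ratio in size was -0.14, for Cd4, beside a median absolute log2 ratio of 0.22 for all genes tested. Of all 17458 genes tested, 11.8% were higher in library 2 and 13.4% in library 1.

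**Figure D5:**
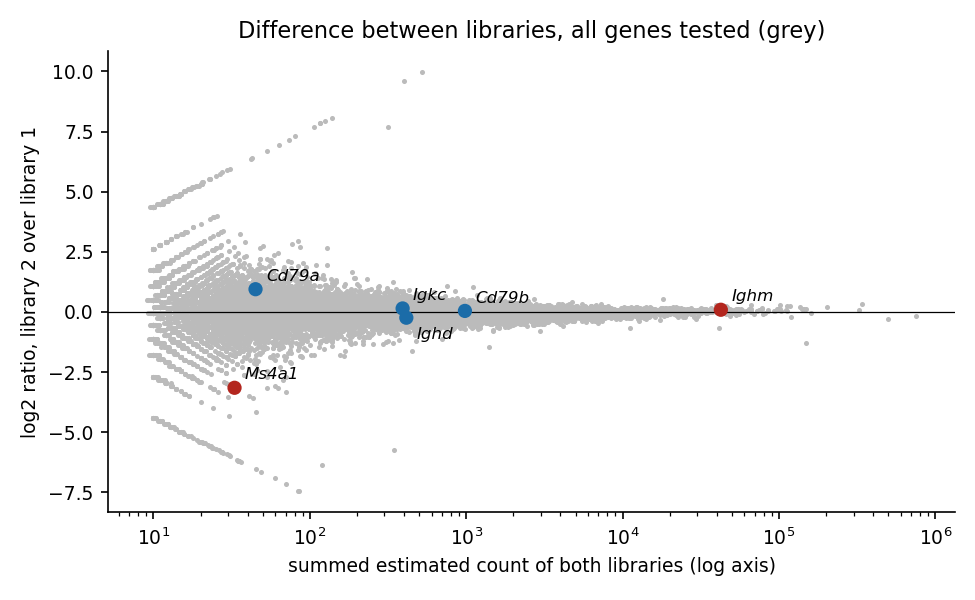
Log2 ratio of library 2 over library 1 against the summed count of both libraries on a log axis, for the 17458 genes tested (grey) and the 6 genes of the set with enough counts, red where the adjusted p is under 0.05 and blue otherwise. Ms4a1, at a log2 ratio of -3.15, lies far under 0, and Ighm lies near 0.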

How the data were processed

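Both libraries were measured by polyA plus RNA-seq on mm10. The larger gene and transcript tables use GENCODE M21 per the deposited readme texts; no source used here names the aligner or its version. Per the file headers they hold estimated counts with no scaling, TPM scaled by the authors over all features (a maximum likelihood value, and a posterior mean with bounds), and the percent of a gene's TPM in each transcript. The smaller tables hold whole-number counts deposited with GENCODE M4; no source used here gives their counting tool, or how strand and duplicate reads were treated.

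Identifiers were joined to GENCODE M21, which matched 55536 genes and 141862 transcripts; 22195 of the 22457 identifiers of the smaller tables matched. Other features were left out. A gene counted as expressed at 1 TPM in both libraries. Windows of 50 bases were compared with all annotated transcripts on both strands; feature lengths exceed effective lengths by a median of 49 bases. V, D, J and constant genes were grouped by biotype and chromosome. Transcripts were called membrane forms where they reach the last annotated exon of the gene.

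Estimated counts were rounded and the libraries compared by the exact binomial test with edgeR 4.0.16 TMM library sizes, a summed count of 10 or more, a prior count of 0.5 in log2 ratios, and Benjamini-Hochberg adjustment at 0.05 over all genes tested; a quasi-likelihood fit could not be had, with 1 library a side. The test was checked on simulated data that held counting error only, so the check does not cover the further variation between the libraries. DESeq2 1.42.0 size factors, library totals, other count minimums, the smaller tables, posterior means and each library alone were the alternatives. The genes named are the 9 of the set, their transcripts with a count, all immunoglobulin constant genes, the leading V segments, the neighbours of Ighm in rank, and members of 10 lists with 102 entries; some of these genes are not reported here by name. These genes and lists were chosen with earlier results of these data known.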

Additional observations from a re-analysis of the deposited data

How the results depend on the processing

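The posterior mean estimate gave Ighm 944 TPM and heavy chain V segments 7.48% of constant TPM, against 0.915% as reported; it moved Pax5 from 0.155 to 2.25 TPM, which made 5 genes of the set expressed in place of 4. In estimated counts Ighm exceeded Igkc 108-fold and the secreted form held 33.6% of Ighm. In the smaller gene tables Ighm exceeded Igkc 25.0-fold. Heavy chain V segments there had 9.47 counts per 1000 constant counts against 1.60 as reported (the beta locus had 5177 and 5334). By the exact binomial test, 0 of 5 genes of the set tested there and 1171 of 11149 genes differed between the libraries. Of those 5, 1 had an unadjusted p under 0.05 in that test. In the larger tables with a summed count of 50 or more, 1 of 4 genes of the set and 3745 of 12704 genes differed. The cause of these shifts was not tested. Counts are not divided by length, and posterior means are above 0 for segments with no counts. Fewer genes were tested in the smaller tables and at the higher count minimum. The checks of V segments were added after the data were seen. With 1 library alone, Ighm lay at 1039 to 1079 TPM, its ratio to Igkc at 32.7 to 33.9, its secreted share at 36.2 to 36.9%, V segments at 1.59 to 1.60 counts per 1000 constant counts and 0.818 to 1.01% of TPM, and 4 to 5 genes of the set were expressed. No log2 ratio of a gene of the set changed its direction under any alternative that could be run. Ighm lost its call in the smaller tables, where it lay at 1.96 and 1.98 counts per base and where few genes passed 2 per base. No paired analysis was possible because all samples belong to 1 group. Depth limits Iglc2, Jchain, Cd79a, Pax5, Ms4a1 and single immunoglobulin V and J segments, all with 30 counts or fewer in each library.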

Other observations

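The smaller gene tables held fewer counts in all, by 4.22 times in library 1 and 4.39 times in library 2, and the gap differed between genes. For Ighm the larger table had 6.60 and 7.11 times the count of the smaller one, for Trac 21.6 and 22.4 times, for Igkc 1.57 and 1.58 times and for Foxp3 1.52 and 1.55 times. Among genes with an effective length of 500 bases or more, the median ratio of the tables in library 1 was 2.28 for 5655 genes with 0.05 to 0.5 counts per base in the larger table and 14.4 for 214 genes with 5 or more. Ighm had 12.9 counts per base in the larger table and 1.96 in the smaller one, and Ptprc, its neighbour in rank, 13.2 and 2.04. Among these genes, the highest value in the smaller table was 2.68 counts per base in library 1 and 2.74 in library 2. Whether duplicate reads were kept in each table is not given in the sources used here, and its part in the level of Ighm was not tested.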
